A study of Mus musculus with 4 samples.

Results

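Stromal cells that grow attached to plastic, known as mesenchymal stem cells (MSC), are recognised in culture by a set of cell surface antigens. The transcripts described here are those of 10 genes used to recognise such cells: Thy1 (CD90), Cd34, Eng (endoglin, CD105), Nt5e (CD73), Cd44, Vcam1 (CD106), Mcam (CD146), Alcam (CD166), Lepr (the leptin receptor) and Nes (nestin, a cytoplasmic filament protein used as a stromal marker beside the surface antigens). All probe sets that the platform annotation pairs with exactly 1 of these symbols were taken, which gave 27 of 45037 probe sets that are not array controls. Thy1, Cd34 and Mcam had 1 probe set each, Eng 2, Nt5e, Vcam1 and Nes 3 each, Cd44 and Lepr 4 each, and Alcam 5.

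The arrays carried RNA of 4 cell lines from C57BL/6 mice, 2 derived from bone marrow and 2 from flushed colon, each on 1 array. The labels give no genetic change and no treatment, and both kinds of line were isolated by adherence after collagenase digestion and kept in low-glucose medium with 10% serum. Each line was lysed at some passage between 5 and 10; the passage of a given line, and whether the lines came from separate mice, is not stated in the labels, so p-values measure the spread between these lines. RNA was amplified before labelling, and the values are linear probe set intensities with no fixed unit. Levels of different probe sets are therefore not compared as amounts of RNA, and where sums or the highest reading of a marker list are given, they describe intensities only.

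In definitions of human MSC, THY1, ENG and NT5E are required antigens and CD34 is one that should be missing, because it marks blood-forming and endothelial cells. Mouse lines are more variable: Thy1 and Cd34 depend on the tissue, the strain and time in culture, and Cd34 is also found on fibroblasts of many tissues, the colon among them. Vcam1, Lepr and Nes are known from the stroma that surrounds blood stem cells in bone marrow, and Mcam from pericytes, the cells that wrap small vessels.

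For orientation in the genome, promoter windows of 8 of the 10 genes, all but Thy1 and Vcam1, were matched by symbol in a RefSeq table (build GRCm38.p6, 250 bases before to 50 after the gene start, 300 bases in all). The windows of Cd34 and Mcam are printed because these genes had higher intensities in both colonic lines, and that of Alcam because it was bright in 1 colonic line alone. Each is written 5′ to 3′ on the strand of its gene, and capitals mark CG dinucleotides, the sites of DNA methylation in mammals, which read the same on both strands. The Cd34 window lies at chr1:194938571-194938870 (plus strand), that of Mcam at chr9:44134408-44134707 (plus strand) and that of Alcam at chr16:52453032-52453331 (minus strand).
Cd34: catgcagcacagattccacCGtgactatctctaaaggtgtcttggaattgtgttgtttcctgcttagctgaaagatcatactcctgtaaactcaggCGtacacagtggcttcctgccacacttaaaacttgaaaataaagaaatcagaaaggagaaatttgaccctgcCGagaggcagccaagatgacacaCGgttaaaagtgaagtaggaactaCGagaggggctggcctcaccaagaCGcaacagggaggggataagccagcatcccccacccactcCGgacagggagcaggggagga
Mcam: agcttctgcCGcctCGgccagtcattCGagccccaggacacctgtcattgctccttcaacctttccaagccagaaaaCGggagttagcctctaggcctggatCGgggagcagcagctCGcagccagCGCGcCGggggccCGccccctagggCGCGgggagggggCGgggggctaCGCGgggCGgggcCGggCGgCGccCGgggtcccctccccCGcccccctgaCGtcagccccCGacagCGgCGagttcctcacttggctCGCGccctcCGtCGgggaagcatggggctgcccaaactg
Alcam: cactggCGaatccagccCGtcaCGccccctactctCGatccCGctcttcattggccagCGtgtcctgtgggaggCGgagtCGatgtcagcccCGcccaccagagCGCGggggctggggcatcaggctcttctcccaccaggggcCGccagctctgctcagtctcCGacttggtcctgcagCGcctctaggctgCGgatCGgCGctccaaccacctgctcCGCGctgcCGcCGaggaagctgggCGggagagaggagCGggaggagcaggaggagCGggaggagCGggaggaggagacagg
The Cd34 window holds 7 CG dinucleotides, which is also the median of all 32851 windows in the table. The Mcam window holds 29, and 12.9% of all windows hold at least as many. The Alcam window holds 25, a number reached by 18.4% of windows. Among the other genes the count was 6 for Eng and Cd44, 23 for Nt5e, 18 for Nes, and 18 and 13 for the 2 windows of Lepr. These counts describe the letters of the windows and are no measure of methylation.

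The 4 arrays had median intensities between 53.6 and 55.5. Tissues were compared with limma on log2(intensity + 13.6) over the 27022 probe sets whose mean over the arrays exceeded 33.3, and differences are given as colonic minus bone marrow on that scale, which understates the change of dim genes. Of these probe sets 0 passed an adjusted p of 0.05, 1520 had an unadjusted p below 0.05 (5.63%), and 54 an adjusted p below 0.1. The filter was passed by 19 of the 27 member probe sets and by at least 1 probe set of each gene. Some markers of mesenchymal cells were strong in all lines, with Vim between 15815 and 16159 and Col1a2 between 14901 and 15827, and others were not. Decorin (Dcn), a matrix proteoglycan gene of fibroblasts, was at 71.7 and 15.3 in bone marrow lines and at 4343 and 4252 in colonic lines. Pdgfra was at 1609 and 2493 against 492 and 743. Lum was at 9.77 and 6.07 against 107 and 181, and Prrx1 at 8707 and 6022 against 7326 and 278. The leukocyte gene Ptprc (CD45) lay between 19.3 and 28.6, below the filter.

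**Figure D1:**
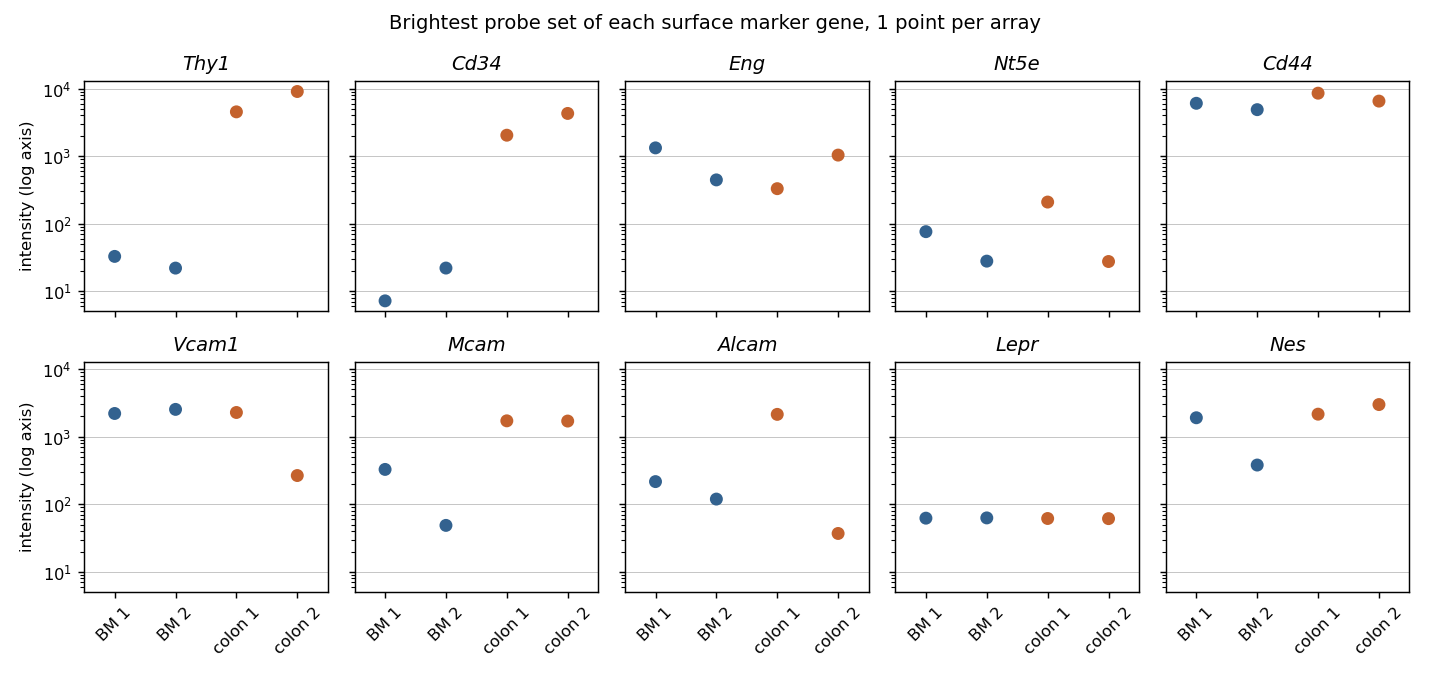
Intensity on a log axis of the brightest probe set of each of the 10 genes, 1 point per array, with bone marrow lines (BM) in blue and colonic lines in orange. Thy1, Cd34 and Mcam lie higher in both colonic lines, Alcam is bright in colonic replicate 1 alone and Vcam1 dim in colonic replicate 2 alone.

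None of the 19 tested member probe sets passed an adjusted p of 0.05, and the 2 with an adjusted p below 0.1 were those of Thy1 and Cd34 (background 0.2%). An unadjusted p below 0.05 was found for 5 of the 19, those of Thy1, Cd34 and Mcam and 2 of Cd44, all higher in colonic lines, a direction in which 3.16% of all tested probe sets had such a p. The genes were named with these results known, and Thy1 and Cd34 passed the filter only through the colonic arrays, so these counts describe the genes and are no independent support. Over all 27 probe sets, 7 were higher in both colonic lines than in either bone marrow line (background 16.9%) and 2 were lower (background 15.8%).

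Thy1 encodes a small glycosylphosphatidylinositol-anchored glycoprotein of the immunoglobulin superfamily, found on T cells, neurons and fibroblasts. Its probe set 1423135_at had intensities of 32.8 and 22.0 in the bone marrow lines and 4516 and 9032 in the colonic lines. Both bone marrow values lay under the filter level of 33.3, and colonic replicate 2 was the brighter of the colonic lines. The mean was 27.4 ± 7.63 (SD, n = 2) in the bone marrow lines and 6774 ± 3193 (SD, n = 2) in colon, and the log2 difference was 7.30 ± 0.46 (SE), with a limma adjusted p of 0.0608 over all tested probe sets, the smallest in the table and shared by 13 probe sets. It became 0.0390 and 0.0378 without colonic replicate 1 and 2, and 0.2499 and 0.439 without bone marrow replicate 1 and 2. In each of these fits 1 tissue has a single array, which is assumed to vary like the 2 arrays of the other tissue. Without a colonic array the only spread left is that of the 2 bone marrow values, both under the filter level.

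Cd34 encodes a sialomucin that serves as a ligand of L-selectin on some endothelia. The intensities of its probe set 1416072_at were 7.22 and 22.1 in the bone marrow lines and 2038 and 4278 in the colonic lines. As for Thy1, both bone marrow values were under the filter level and colonic replicate 2 was the brighter colonic line. The means were 14.6 ± 10.5 (SD, n = 2) for bone marrow and 3158 ± 1584 (SD, n = 2) for colon. The log2 difference was 6.77 ± 0.52 (SE), and it had a limma adjusted p of 0.0792. Under the same assumption that p was 0.0390 and 0.0416 without colonic replicate 1 and 2, and 0.288 and 0.439 without bone marrow replicate 1 and 2.

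In 119 of the tested probe sets (0.44%) the dimmest colonic line was at least 4-fold brighter than the brightest bone marrow line on the log2 scale above, and those of Thy1, Cd34 and Mcam were among them. Likeness to Thy1 and Cd34 was measured as the Euclidean distance between centred log2 values over the 4 arrays, with 1 probe set per gene. Among genes outside the 10, the 5 nearest to Thy1 were Igfbp6 (distance 0.93), Igfbp2 (1.07), Plac8 (1.13), Meg3 (1.21) and Cyba (1.32), and Cd34 stood at 0.98, between the first and the second. With these 10 genes left out of the ranking, nearest to Cd34 were Igfbp2 (0.78), Cyba (1.16), Igfbp6 (1.19), Rian (1.34) and Meg3 (1.45), while Thy1 stood at 0.98 from Cd34. With 4 arrays any gene that is near the floor in bone marrow and bright in colon comes out as similar.

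Mcam, a cell adhesion molecule of the immunoglobulin superfamily, was read by 1 probe set, 1416357_a_at, where the letter a marks probes shared by alternative transcripts of a gene. It had intensities of 328 and 48.7 in the bone marrow lines and 1717 and 1704 in the colonic lines. The colonic lines differed by a ratio of 1.01 (replicate 1 over replicate 2), whereas bone marrow replicate 1 was 6.73 times as bright as replicate 2, so the spread of the gene lay in bone marrow. The log2 difference was 3.56 ± 0.85 (SE), with a limma unadjusted p of 0.0101 and an adjusted p of 0.609. Leaving out bone marrow replicate 2 gave 2.34, and leaving out replicate 1 of that tissue gave 4.79.

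Thy1 and Mcam are neighbours on mouse chromosome 9, with 4 protein-coding genes between them in the RefSeq annotation of GRCm38.p6, a relation looked up after their values were seen. Of those 4, Usp2, a ubiquitin protease gene, was at 229 and 53.1 in the bone marrow lines and 140 and 160 in the colonic lines, and Rnf26 at 5178 and 5583 against 4697 and 5328. Their log2 differences were 0.36 ± 0.67 and -0.10 ± 0.14 (SE), and their tissues overlapped. C1qtnf5 and Mfrp, the others between them, are not analysed here. On the far side of Mcam, the ubiquitin ligase gene Cbl had 1206 and 1443 against 1754 and 1774 (0.42 ± 0.25, SE). On the far side of Thy1, the adhesion gene Nectin1 had 73.3 and 36.2 against 247 and 89.3 (1.31 ± 0.57, SE, limma unadjusted p = 0.0730). Cbl, Nectin1 and the next gene, Trim29 (56.9 and 39.9 against 72.5 and 57.5), were higher in both colonic lines than in either bone marrow line. Over all tested genes 18.6% were so. The tissues overlapped for Oaf, and for Ccdc153 and Pdzd3, which were under the filter.

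**Figure D2:**
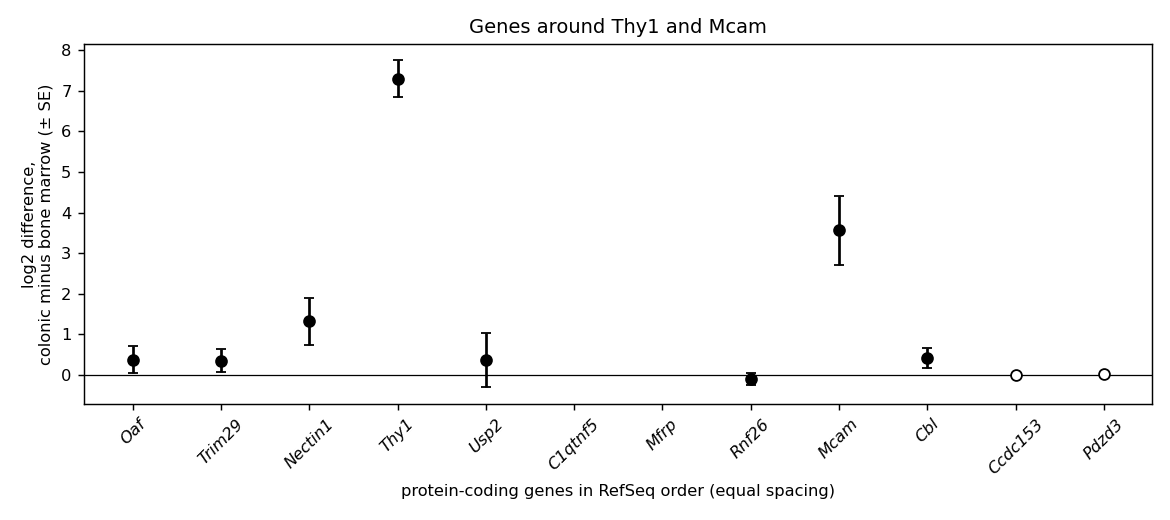
Log2 difference between colonic and bone marrow lines (± SE of limma, filled points) for the protein-coding genes around Thy1 and Mcam, in RefSeq order with equal spacing. Open points are genes under the filter, shown without an error, and genes without a point are not analysed here; Thy1 (7.30) and Mcam (3.56) stand above the genes between and beside them.

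Cd44, the receptor for the matrix polysaccharide hyaluronan, was bright in every line and brighter in both colonic lines on 3 of its 4 probe sets. Probe set 1434376_at had 6043 and 4867 in the bone marrow lines and 8532 and 6512 in the colonic lines. On 1423760_at the values were 3207 and 2240 against 6488 and 3852. For 1452483_a_at they were 441 and 306 against 1466 and 686. In all 3 colonic replicate 1 was the brightest array and bone marrow replicate 2 the dimmest, and the tissues did not overlap. The log2 differences were 0.46 ± 0.19, 0.90 ± 0.33 and 1.42 ± 0.49 (SE), with limma unadjusted p of 0.0691, 0.0467 and 0.0362 and adjusted p of 0.927, 0.879 and 0.835. The fourth, 1443265_at, lay between 1 and 16.8 and was under the filter.

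Alcam, a homophilic adhesion molecule that also binds CD6 on T cells, separated the colonic lines from each other. Probe set 1426300_at had 217 and 119 in bone marrow, 2140 in colonic replicate 1 and 37.0 in colonic replicate 2. On 1437466_at the values were 291 and 114, then 2067 and 13.7. The same order was given by 1437467_at, with 87.3 and 50.3, then 1042 and 6.77. Probe set 1426301_at had 84.4 and 89.1, then 820 and 33.1. All 4 placed colonic replicate 1 highest and colonic replicate 2 lowest, with both bone marrow lines between them, and the log2 gap between the colonic lines ran from 4.16 to 6.25. The fifth probe set, 1443086_at, did not exceed 3.14.

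With the colonic lines on either side of the bone marrow lines, the errors of the tissue difference of Alcam were wide. The log2 difference was 0.92 ± 1.81 (SE) for 1426300_at, 0.27 ± 2.10 for 1437466_at, 0.87 ± 1.89 for 1437467_at and 0.98 ± 1.38 for 1426301_at, with limma adjusted p between 0.990 and 0.995. Without colonic replicate 1 these turned to -1.79, -2.85, -1.98 and -1.10. For 1437466_at the difference was also below 0 without bone marrow replicate 2 (-0.36) and with a pseudocount of 1 (-0.07).

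Vcam1, the endothelial and stromal counter-receptor of the integrin alpha 4 beta 1 on leukocytes, was low in 1 colonic line. Probe set 1448162_at had 2206 and 2535 in bone marrow, 2281 in colonic replicate 1 and 266 in colonic replicate 2. On 1415989_at the values were 303 and 323, then 286 and 52.4. On 1451314_a_at they were 338 and 690, then 1019 and 89.1. Colonic replicate 2 was the dimmest array on all 3 probe sets. Colonic replicate 1 lay with the bone marrow lines on the first, just below them on the second and above them on the third. The log2 differences between tissues were -1.57 ± 1.02, -1.22 ± 0.77 and -0.61 ± 1.17 (SE), with a limma adjusted p of 0.990 each. Without colonic replicate 2 they were -0.05, -0.12 and 1.05.

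**Figure D3:**
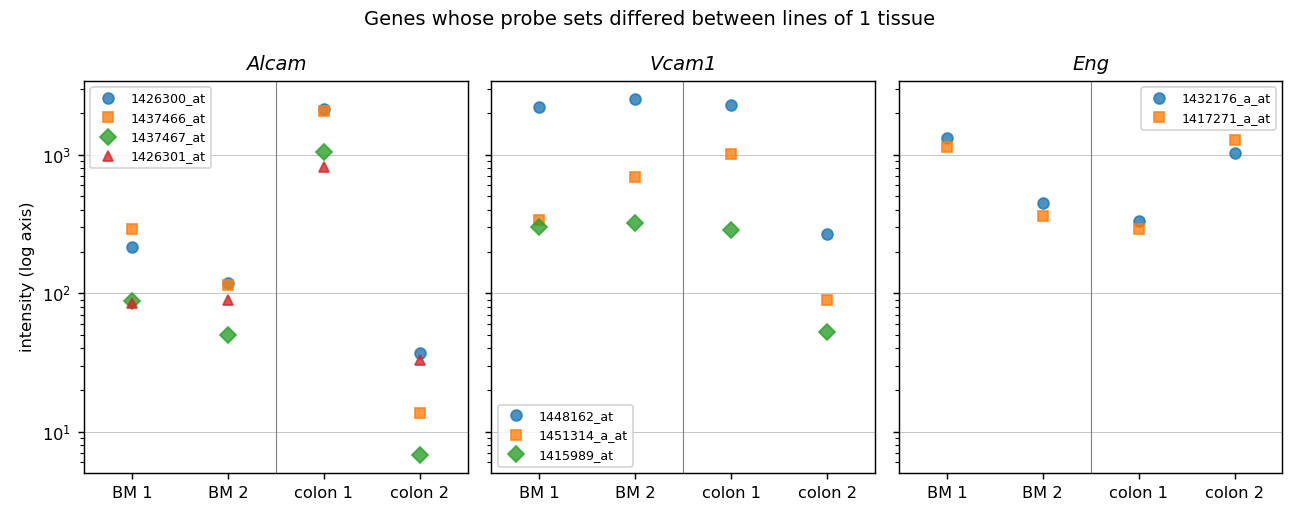
Intensity on a log axis of every tested probe set of Alcam, Vcam1 and Eng on each array, with the line separating bone marrow (BM) from colonic lines. The probe sets of a gene follow the same arrays: Alcam is highest in colonic replicate 1, Vcam1 lowest in colonic replicate 2, and Eng high in bone marrow replicate 1 and colonic replicate 2.

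Eng, a co-receptor for ligands of the TGF-beta family, was high in 1 line of each tissue. Probe set 1432176_a_at had 1323 and 445 in the bone marrow lines and 330 and 1035 in the colonic lines. On 1417271_a_at the values were 1139 and 359 against 291 and 1289. Bone marrow replicate 1 was 2.98 and 3.17 times as bright as replicate 2, while colonic replicate 1 was 0.319 and 0.226 times as bright as its replicate 2. The log2 differences between tissues were -0.38 ± 0.78 and -0.06 ± 0.92 (SE), with limma adjusted p of 0.990 and 0.997. They turned to 0.39 and 0.76 without bone marrow replicate 1 and to 0.42 and 0.99 without colonic replicate 1.

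Nt5e, the ectoenzyme that converts extracellular AMP to adenosine, was dim on all 3 of its probe sets. Probe set 1428547_at, the only one above the filter, had 76.3 and 27.9 in the bone marrow lines and 209 and 27.6 in the colonic lines. Colonic replicate 1 was the brightest, as for Alcam, and the tissues overlapped. The log2 difference was 0.65 ± 0.91 (SE, limma adjusted p = 0.990) and -0.57 without colonic replicate 1. The others, 1459023_at and 1422974_at, lay between 19.9 and 40.3 and between 5.54 and 18.6.

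Nes had 3 probe sets that did not share a pattern. Probe set 1449022_at had 1907 and 381 in the bone marrow lines and 2154 and 2989 in the colonic lines. Bone marrow replicate 2 stood apart below the others, and the tissues did not overlap by a narrow margin of 0.18 on the log2 scale. Its log2 difference was 1.55 ± 0.80 (SE, limma adjusted p = 0.981), and 0.41 without bone marrow replicate 2. Probe set 1418289_at lay between 163 and 236 on all arrays (-0.16 ± 0.33, SE, and 0.09 without bone marrow replicate 1), and 1453997_a_at between 18.5 and 33.4.

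Lepr, the receptor for the fat hormone leptin and a marker of perivascular stroma in adult marrow, was dim and alike in all lines. On 1425875_a_at, which passed the filter, the values were 62.4 and 62.9 in the bone marrow lines and 61.7 and 61.4 in the colonic lines, a log2 difference of -0.02 ± 0.24 (SE, limma adjusted p = 0.996). The other 3 probe sets lay under the filter, with 33.6 in bone marrow replicate 2 on 1456156_at as their highest value. Detection calls were not part of the values, so a dim probe set does not show absence of the transcript.

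**Figure D4:**
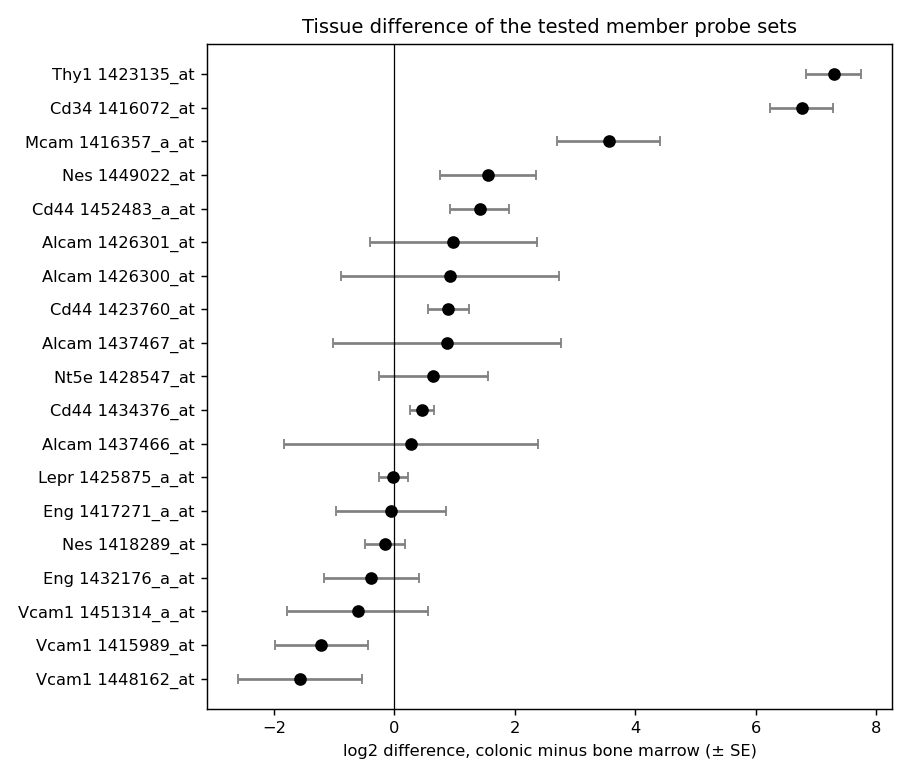
Log2 difference between colonic and bone marrow lines for the 19 tested probe sets of the 10 genes, with the SE of limma as bars. Thy1 (7.30), Cd34 (6.77) and Mcam (3.56) stand at the top, and the bars of the Alcam probe sets are wide because the colonic lines differed.

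Lines of 1 tissue also stood apart from each other in several of these genes. Between the colonic lines, values were at least 4-fold apart on the log2 scale in 9 of the 19 tested probe sets, 4 of Alcam, 3 of Vcam1, 1 of Eng and 1 of Nt5e (background 3.25%). Probe sets of a gene share its transcript, so these are 4 genes and not 9 separate results. With 1 probe set per gene it was 3 of 10, those of Alcam, Vcam1 and Nt5e (background 4.2%). The bone marrow lines were that far apart in 2 of the 19, those of Mcam and Nes (background 2.7%). In both of the latter bone marrow replicate 2 was the dimmer line.

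Markers of other cell types moved with some of these lines. Among 12 endothelial markers, Pecam1 did not exceed 2.48 and Cdh5 did not exceed 24.2, while Flt1 was at 1143 in colonic replicate 1 and between 20.9 and 82.0 elsewhere. The 4 endothelial genes above the filter had a median log2 difference of 0.95, and 3 of them, Flt1, Kdr and Tek, were higher in both colonic lines than in either bone marrow line (background 18.6%). Kdr was at 31.9 and 18.5 in bone marrow MSC against 91.1 and 68.9 (limma unadjusted p = 0.00966), and Tek at 32.0 and 15.9 against 43.6 and 42.2. The bone marrow values of Kdr and Tek were all under the filter level, so both genes passed only through the colonic arrays. That count and median are therefore no independent support. Among the endothelial genes under the filter, Pecam1 and Erg were higher in both colonic lines, and Vwf and Sox17 were lower. The summed level of that list was 325 and 221 in bone marrow, 1527 in colonic replicate 1 and 364 in colonic replicate 2, and 6 of the 12 stayed below 33.3 on every array. T cell markers, of interest beside Thy1, summed to between 173 and 186 on all arrays, with Zap70 the brightest at 71.7. Of 8 T cell genes on the array 6 stayed below 33.3 throughout, and Cd3e did not exceed 12.2. Haematopoietic progenitor markers, of interest beside Cd34, summed to 1887 and 1787 in the bone marrow lines and 3212 and 4536 in the colonic lines. In bone marrow the largest term of that sum was Runx1, at 1099 and 1197 (1018 and 558 in colon), and in colon it was Gata2, at 458 and 215 in the bone marrow lines and 1878 and 3642 in the colonic lines, while Kit did not exceed 49.6, Flt3 22.6 and Myb 18.4. The part of such cells in the levels of Thy1 and Cd34 was not tested. In bulk RNA fewer cells of a type and less RNA per cell cannot be told apart.

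Beside Alcam and Vcam1, which differed between the colonic lines, markers of pericytes and smooth muscle summed to 64694 in colonic replicate 1 and 51460 in replicate 2, and to 56013 and 35617 in bone marrow replicates 1 and 2. Of these 12 genes 0 stayed below 33.3 on every array, and 6 were at least 2-fold higher in colon (background 5.94%), with a median log2 difference of 0.98. Acta2, smooth muscle actin, had the highest reading of the list, and its values lay between 15980 and 17010. Of these 6, the desmin gene Des, Myh11, Abcc9 and Kcnj8 were bright in colonic replicate 1 alone, so their differences rest on 1 line. Des was at 2379 in colonic replicate 1 against 47.9 in replicate 2. Myh11 was at 1123 against 43.4, Abcc9 at 674 against 3.07 and Kcnj8 at 263 against 24.6. In bone marrow none of these genes exceeded 52.4. The bone marrow means of Myh11, Abcc9 and Kcnj8 were 29.0, 10.0 and 19.6, under the filter level of 33.3. These genes therefore passed the filter only through the colonic arrays. The count of 6 and the median above are no independent support. The calponin gene Cnn1 had 8623 and 33.0 against 11529 and 8477, and the pericyte gene Rgs5 had 51.9 and 15.4 against 122 and 94.1 (limma unadjusted p = 0.0274), both lowest in bone marrow replicate 2, as Mcam was. Other genes of the list differed from Mcam. Pdgfrb was lower in both colonic lines (5042 and 4686 against 3377 and 3844). Cspg4 was lowest in colonic replicate 2 (3057 and 67.0 against 4091 and 31.1), and Notch3 was highest in bone marrow replicate 1 (1205 and 130 against 390 and 327). Mesothelial markers summed to 2127 and 231 in the colonic lines and to 6374 and 5189 in bone marrow. On every array but colonic replicate 2, most of that sum came from the keratin gene Krt19. It was at 1890 and 105 in the colonic lines, while Msln did not exceed 29.6. Intestinal epithelial markers summed to 3120 and 382 in colonic MSC and 6565 and 5491 in bone marrow, with Epcam at most 19.6. The epithelial and mesothelial lists share Krt19, which was at 6223 and 5083 in the bone marrow lines, so their sums are not independent. Krt20 was at 889 in colonic replicate 1 and did not exceed 29.4 on the other arrays. Enteric neuron and glia markers summed to 1376 and 515 in colonic MSC and 1272 and 610 in bone marrow, with Sox10 at most 32.7, and the brightest was Ret at 860 in bone marrow replicate 1. Among Cajal cell markers Ano1 was at 905 in colonic replicate 1 and 80.8 in replicate 2, and at 292 and 50.6 in bone marrow, with Kit at most 49.6. Macrophage markers summed to 1870 and 2970 in colonic MSC and 3500 and 1189 in bone marrow, where Lyz2 reached 1589 in bone marrow replicate 1. In that list the leukocyte tetraspanin gene Cd53 was at 14.0 and 15.7 in bone marrow, 155 in colonic replicate 1 and 1333 in colonic replicate 2, so that, like Thy1 and Cd34, it was higher in both colonic lines and highest in the second (log2 difference 4.07 ± 1.01, SE, limma unadjusted p = 0.0116). Of the 7 macrophage genes above the filter, Cd53 was the only 1 higher in both colonic lines (background 18.6%). Both bone marrow values of Cd53 were under 33.3, so it passed the filter only through the colonic arrays. That count and the p of Cd53 are therefore no independent support. Fcer1g was at 640 and 59.0 in bone marrow against 43.2 and 59.6, and Cd14, given below, overlapped. Tyrobp did not exceed 2.15 and Ctss did not exceed 8.92, and 5 of the 12 macrophage genes stayed below 33.3 throughout. The part of these cell types in the levels of Thy1, Cd34 and Mcam and in the spread of Alcam, Vcam1 and Eng was not tested.

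The other surface antigens used for MSC had 20 measured genes, each read by its brightest probe set. Of these 0 passed the adjusted threshold, 3 had an unadjusted p below 0.05 toward colon (background 3.66% of 12930 genes) and 4 toward bone marrow (background 2.9%), and the median log2 difference was 0.06, against 0.01 over all genes. Pdgfra, the receptor for platelet-derived growth factor, had a log2 difference of -1.70 ± 0.38 (SE, limma unadjusted p = 0.00774), and -0.42 on the weakest of its probe sets. Icam1, a leukocyte adhesion molecule, was at 10.2 and 14.2 in the bone marrow lines and 104 and 40.6 in the colonic lines. It passed the filter only through the colonic arrays. Bst2, an interferon-responsive membrane protein gene, was at 153 and 463 against 992 and 1518. Of 9 antigens on the array that MSC should lack, 3 passed the filter and 0 had an unadjusted p below 0.05. The lipopolysaccharide co-receptor gene Cd14 was the brightest of them, at 810 and 735 in the bone marrow lines and 963 and 573 in the colonic lines. Itgam was at 48.4 and 87.7 against 73.0 and 54.6. H2-Ab1, an MHC class II chain, was at 152 in colonic replicate 1 and at most 10.2 elsewhere.

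Genes that act with the markers were read from lists of partners. For the counts in all these lists, here and below, the background was 3.66% of 12930 genes toward colon. Toward bone marrow it was 2.9%. For Thy1, whose partners are integrins, syndecan 4 and Src family kinases, 0 of 10 measured genes had an unadjusted p below 0.05 and the median log2 difference was 0.09. Csk, Src and Itgb3 had the lowest p, and the beta 3 integrin gene Itgb3 was at 497 and 70.9 in the bone marrow lines and 485 and 524 in the colonic lines. Among 7 genes of the sialomucin and selectin system around Cd34, 1 had an unadjusted p below 0.05, Muc1, at 74.0 and 64.3 in the bone marrow lines and 32.7 and 29.4 in the colonic lines, and the median was -0.17. Both colonic values of Muc1 were under the filter level, so it passed the filter only through the bone marrow arrays. That count and the p of Muc1 are therefore no independent support. Cd164, another sialomucin, was at 9440 and 9537 against 8139 and 8736, and the selectin gene Selp at 28.4 and 55.7 against 106 and 42.6. Podxl, the closest relative of Cd34 on the list, was at 88.7 and 118 against 113 and 53.9.

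In the hyaluronan system of Cd44, 1 of 10 measured genes had an unadjusted p below 0.05 toward colon and 1 toward bone marrow, with a median of 0.32. Has2, a hyaluronan synthase, was at 370 and 198 in the bone marrow lines and 3487 and 1022 in the colonic lines, a log2 difference of 2.74 ± 0.70 (SE, limma unadjusted p = 0.0127) that was 3.01 on its other probe set. Cemip, a hyaluronan-degrading factor, was at 4192 and 2809 against 1614 and 1744, while its other probe set had a difference of 0.08. Moesin (Msn), which ties Cd44 to actin, was at 9871 and 7899 against 10505 and 10993.

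For the receptors and ligands around Eng, 0 of 15 measured genes had an unadjusted p below 0.05 toward colon and 2 toward bone marrow, with a median of 0.01. The co-receptor gene Tgfbr3 (betaglycan) was at 2038 and 5015 in the bone marrow lines and 919 and 324 in the colonic lines, a log2 difference of -2.52 ± 0.68 (SE, limma unadjusted p = 0.0161). Smad5, a mediator of BMP signals, differed by -0.54 ± 0.20 (SE), with 0.07 on another of its probe sets. The ligand gene Tgfb3 was at 3547 and 1619 against 6023 and 4462.

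Around Nt5e, 1 of 8 measured genes of extracellular nucleotide handling had an unadjusted p below 0.05 toward colon and 2 toward bone marrow, with a median of 0.08. Entpd1 (CD39), which makes the AMP that Nt5e uses, was at 18.9 and 42.8 in the bone marrow lines and 181 and 1369 in the colonic lines, a log2 difference of 3.60 ± 1.00 (SE, limma unadjusted p = 0.0173). The bone marrow mean of these Entpd1 values was 30.8, under the filter level, so the gene passed the filter only through the colonic arrays. The count toward colon and the p of Entpd1 are therefore no independent support. Its other probe sets gave 3.49 and 1.66, the latter with a limma unadjusted p of 0.106. The former was at 2.84 and 2.04 in the bone marrow lines, so it too passed only through the colonic arrays. Enpp3, another nucleotide-cleaving ectoenzyme, was at 338 and 210 against 50.3 and 51.4, and was lower in colon on each of its 3 probe sets. The nucleoside transporter gene Slc29a1 was at 2317 and 1676 against 153 and 750.

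Among 10 measured adhesion partners and relatives of Vcam1 and Alcam, 3 had an unadjusted p below 0.05 toward colon (background 3.66%) and 1 toward bone marrow (background 2.9%), with a median of 0.50. Icam1, given above and 1 of the 3, passed the filter only through the colonic arrays. Itga9, an integrin chain that binds Vcam1, was at 60.1 and 39.6 in the bone marrow lines and 347 and 798 in the colonic lines, a log2 difference of 3.11 ± 0.50 (SE, limma unadjusted p = 0.00196) that was 1.57 on its other probe set. Itgb7, an integrin chain of gut-homing lymphocytes, was at 262 and 268 against 59.8 and 85.2. Ncam1, a neural adhesion molecule of the same superfamily as Alcam and chosen here after its values were seen, was at 7178 in colonic replicate 1 and 725 in replicate 2, with 1509 and 2265 in bone marrow, so that it too was highest in the first and lowest in the second colonic line.

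In the list for Lepr, 0 of 13 measured genes had an unadjusted p below 0.05 toward colon and 2 toward bone marrow, with a median of -0.59, and 4 were at least 2-fold lower in colon (background 3.59%). The 4 were Foxc1, Ebf3, Socs3 and Cxcl12, the last a chemokine gene of marrow stroma that was low in colonic replicate 1 alone (1417, against at least 11205 elsewhere). Foxc1, a transcription factor of marrow stromal cells, was at 4213 and 4098 in the bone marrow lines and 593 and 898 in the colonic lines, a log2 difference of -2.49 ± 0.29 (SE, limma unadjusted p = 5.17e-04). Ebf3 was at 743 and 715 against 330 and 14.9, with a log2 difference of -2.91 that was -0.70 on the weakest of its probe sets, and Socs3, a feedback inhibitor of cytokine receptors, at 2130 and 2114 against 503 and 1044. Among the filament partners of Nes, 1 of 9 measured genes had an unadjusted p below 0.05, Synm (synemin), at 99.3 and 208 in the bone marrow lines and 22.2 and 31.4 in the colonic lines, and the median was 0.02. Both colonic values of Synm were under the filter level, so it passed the filter only through the bone marrow arrays. The same held for its other probe set, which gave -1.08 and was at 22.8 and 20.5 in the colonic lines. That count and the p of Synm are therefore no independent support. Des, given above, and the keratin gene Krt8, at 43.6 and 44.7 against 39.1 and 27.5, had the next lowest p.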

How the data were processed

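Per the labels' protocols and the series design text, RNA of each line was amplified, given a biotin label and read on an Affymetrix mouse array. The authors deposited probe set intensities, which look linear from their range; for their summarisation, background correction and scaling the tool is not given in the sources used. The deposited scaling was kept, since array medians differed by 0.04 (log2). Control probe sets (64) were left out. The scale was log2(intensity + 13.6), with a pseudocount of 0.25 times the overall median, and probe sets with a mean above the 40th percentile were tested. The tissue contrast was fitted in R 4.3.3 with limma 3.58.1 (lmFit, eBayes with an intensity trend, 2 residual degrees of freedom), two-sided, with Benjamini-Hochberg adjustment over the 27022 tested probe sets. An exact permutation test of 2 against 2 arrays cannot give a p below 0.333, so none was run. The procedure was tested on simulated data.

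Members, gene lists and tests were chosen with earlier results of these data known. All member probe sets are described. From each partner list the 3 genes with the lowest p were named, from each cell type list the brightest gene, and for Thy1 and Cd34 the 5 most similar genes outside the 10; any further gene was picked with its values in view. The settings varied were the normalization (quantile, median centring), pseudocounts, filters, 1 value per gene, variance models, a replicate block, a looser threshold, and each array left out in turn. The number of arrays limits the precision.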

Additional observations from a re-analysis of the deposited data

How the results depend on the processing

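The count of 0 probe sets past an adjusted p of 0.05 over the whole table was 12 with a filter at the 60th percentile, 54 at an adjusted p of 0.1, and between 0 and 96 when an array was left out (70 without colonic replicate 1, 96 without colonic replicate 2). Among the 10 genes the count of 0 became 1 and 2 under the first and second of these, and lay between 0 and 2 with an array left out. With the filter at the 60th percentile, which tests fewer probe sets, Thy1 had a log2 difference of 7.30 and passed (limma adjusted p = 0.0297). With an array left out, the difference ranged from 6.80 to 7.80 for Thy1 and from 6.23 to 7.30 for Cd34. Each such fit has a single array in 1 tissue, assumed to vary like the other tissue. Why leaving out a colonic array lowered the p was not tested.

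With an array left out, the sign turned for Eng 1432176_a_at (-1.19 to 0.42) and 1417271_a_at (-1.11 to 0.99), Nt5e 1428547_at (-0.57 to 1.87), Vcam1 1451314_a_at (-2.28 to 1.05), Alcam 1426300_at (-1.79 to 3.62), 1437466_at (-2.85 to 3.40), 1437467_at (-1.98 to 3.72) and 1426301_at (-1.10 to 3.06), and Nes 1418289_at (-0.41 to 0.093). With a pseudocount of 1, Alcam 1437466_at was at -0.074. In the other 187 recomputed differences that kept all arrays, direction and side of the threshold stayed as reported.

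Lines of the 2 tissues share replicate numbers, and whether same-numbered lines were handled together was not tested. Deviations of same-numbered lines correlated with r = 0.14 across probe sets, which are not independent, so this value cannot decide on a pairing. With the replicate number as a block, 0 probe sets were called, as without it, and the limma adjusted p of Thy1 and of Cd34 was 0.211. Signal near the floor limits the 8 probe sets under the filter; with no filter their limma unadjusted p lay between 0.219 and 0.969.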
